A study of Bos taurus with 12 samples.

Results

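IGF2 and IGF2R are a growth factor and one of its receptors, and both are imprinted in cattle. They were chosen by Ensembl ID, ENSBTAG00000013066.5 for IGF2 and ENSBTAG00000002402.5 for IGF2R, and both IDs were among the 22445 loci of the deposited table, so 2 genes of 22445 are described. The table carries no gene names. The names came with the choice of these IDs and could not be checked against the gene table used here, which has 0 Ensembl entries. RNA was sequenced from Holstein cattle in 4 groups of 3 libraries each, 12 in all. The groups were fetal fibroblasts (BFF) and embryos at the 8-cell stage, in pools of 8, made by in vitro fertilisation (IVF), by somatic cell nuclear transfer (SCNT), or by SCNT with KDM5B overexpression. SCNT is cloning, in which an egg whose own chromosomes were taken out receives a body cell's nucleus. KDM5B removes methyl groups from histone H3 at active genes. How it was raised, and whether these fibroblasts supplied the transferred nuclei, is not given in the sources used here. The series title states an interest in genes that keep a somatic state through reprogramming.

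IGF2 is a secreted protein that drives fetal and placental growth through the IGF1 and insulin receptors, and it is usually read from the paternal allele. IGF2R binds IGF2 and takes it into lysosomes for breakdown, and it also carries lysosomal enzymes marked with mannose 6-phosphate. It is usually read from the maternal allele, so the pair is a textbook case of opposed parental alleles acting on growth. Disturbed imprinting at both loci is known in overgrown calves and lambs after embryo culture or cloning. In cattle the embryo's own genome is switched on in earnest at about the stage sampled here, and transcripts stored in the egg are present before that. The values are FPKM, fragments scaled to transcript length and to the mapped fragments of a library. They add up both alleles, so allele use was not measured.

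Each group has 1 value per gene, the authors' mean of 3 libraries, so there is no SD, no test and no replicate check for any difference below. Depth is unknown, because FPKM keeps no read totals. In the table, 20.1% of loci were listed at 0 in fibroblasts, 12.1% in IVF, 15.3% in SCNT and 9.58% in SCNT with KDM5B. Markers of fibroblasts, embryos, cumulus cells or sperm, the KDM5B transcript and the other genes of the IGF pathway were not analysed here, since their IDs could not be paired with names. In whole pools, fewer cells that express a gene and less RNA per cell cannot be told apart. The sources differ on the sequencer of the fibroblasts, which was a BGISEQ in the series' design and, like that of the embryos, a HiSeq in the protocols. In the first case every comparison with fibroblasts is also one between sequencers, and the effects of both cannot be told apart. Embryo cDNA was amplified from lysates, and any difference from the preparation of fibroblast libraries would enter the same comparisons.

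IGF2, the ligand, stood at 8.95 FPKM in fibroblasts, 0.0333 FPKM in IVF embryos, 0.153 FPKM in SCNT embryos and 0.92 FPKM in SCNT embryos with KDM5B. It was above 1 FPKM in fibroblasts and under 1 FPKM in the 3 embryo groups, whose means were lowest in IVF and highest in SCNT with KDM5B. As a share of the fibroblast level, the embryo means were 0.372% in IVF, 1.71% in SCNT and 10.3% in SCNT with KDM5B. The SCNT mean was thus nearer to the IVF mean than to the fibroblast mean, in FPKM and as a ratio. With KDM5B the mean was nearer to IVF in FPKM, but as a ratio it was 27.6 times the IVF mean, while the fibroblast mean was 9.73 times as high as it was.

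IGF2R, the receptor that clears IGF2, stood at 25.7 FPKM in fibroblasts, 0.33 FPKM in IVF embryos, 0.277 FPKM in SCNT embryos and 0.223 FPKM in SCNT embryos with KDM5B. The embryo means lay close together. As deposited their order was the opposite of that of IGF2, but the order of IVF and SCNT turned under 2 of the 3 other scalings tried. They came to 1.29%, 1.08% and 0.870% of the fibroblast level in IVF, SCNT and SCNT with KDM5B. IGF2R, too, was low in clones and in IVF embryos and high in fibroblasts.

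**Figure D1:**
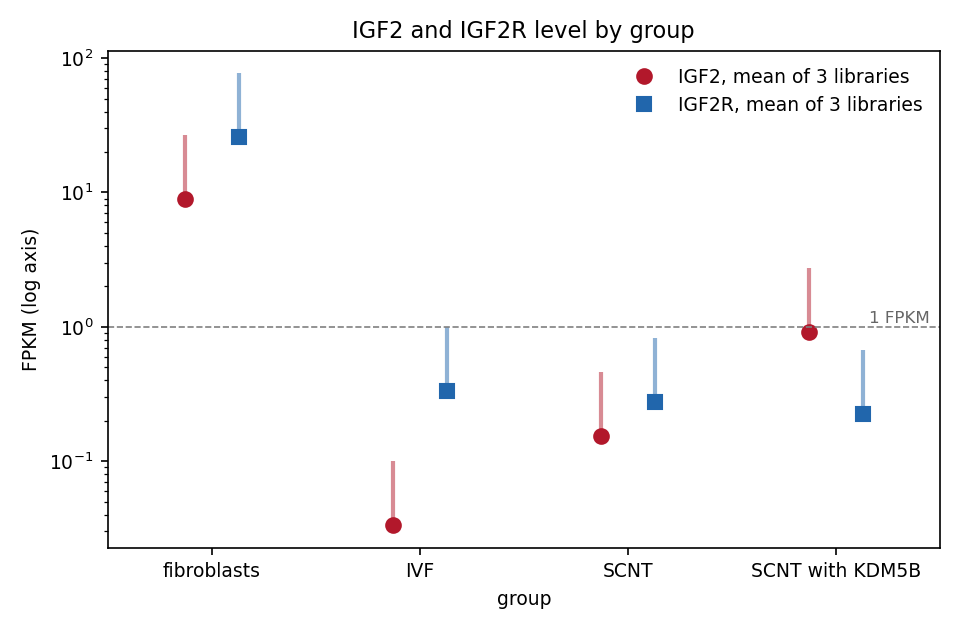
Mean FPKM of IGF2 (red circles) and IGF2R (blue squares) in the 4 groups on a log axis; each vertical line runs from the mean to the sum of the 3 libraries, the range in which the highest single library must lie. IGF2 goes from 0.0333 in IVF to 0.92 in SCNT with KDM5B, while IGF2R stays between 0.223 and 0.33 in embryos.

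The means set limits on single libraries, although no library is listed. FPKM cannot be negative, so the highest of 3 libraries is at least the mean and at most the sum. Such limits separate groups wherever 1 mean is over 3 times another, so they restate the ratios of the means and are no further evidence. For IGF2 the sum was 0.1 FPKM in IVF, 0.46 FPKM in SCNT and 2.76 FPKM in SCNT with KDM5B. At least 1 library with KDM5B was therefore at 0.92 FPKM or more, above the 0.46 FPKM that no SCNT library can exceed. In the same way at least 1 SCNT library was at 0.153 FPKM or more, above the 0.1 FPKM limit of IVF. The 0.92 FPKM could be 3 like libraries or 1 library at 2.76 FPKM with the others at 0, and the mean does not tell these apart. In fibroblasts at least 1 library held 8.95 FPKM or more of IGF2, beyond the limits of the 3 embryo groups.

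For IGF2R no single embryo library could exceed 0.99 FPKM in IVF, 0.83 FPKM in SCNT or 0.67 FPKM in SCNT with KDM5B. All 9 embryo libraries were thus under 1 FPKM, while at least 1 fibroblast library was at 25.7 FPKM or more. The highest library was at least 0.33, 0.277 and 0.223 FPKM in these embryo groups, so the limits overlap and libraries of these groups cannot be placed in order.

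The percentile of a gene within a column places it among the loci of the same group, and does not depend on how the column was scaled. IGF2 stood at percentile 71.4 of 22445 loci in fibroblasts, 16.2 in IVF, 28.7 in SCNT and 45.0 in SCNT with KDM5B, with ties at mid-rank. It therefore stood lower among the loci of every embryo group than among those of fibroblasts, and it kept the order of the means. IGF2R stood at percentile 86.8 in fibroblasts, 30.7 in IVF, 34.1 in SCNT and 29.1 in SCNT with KDM5B. By percentile SCNT was the highest embryo group for IGF2R, whereas by FPKM it was IVF. IGF2 lay close to the share of loci listed at 0 in IVF (12.1%), so many loci at or near 0 surround it there.

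**Figure D2:**
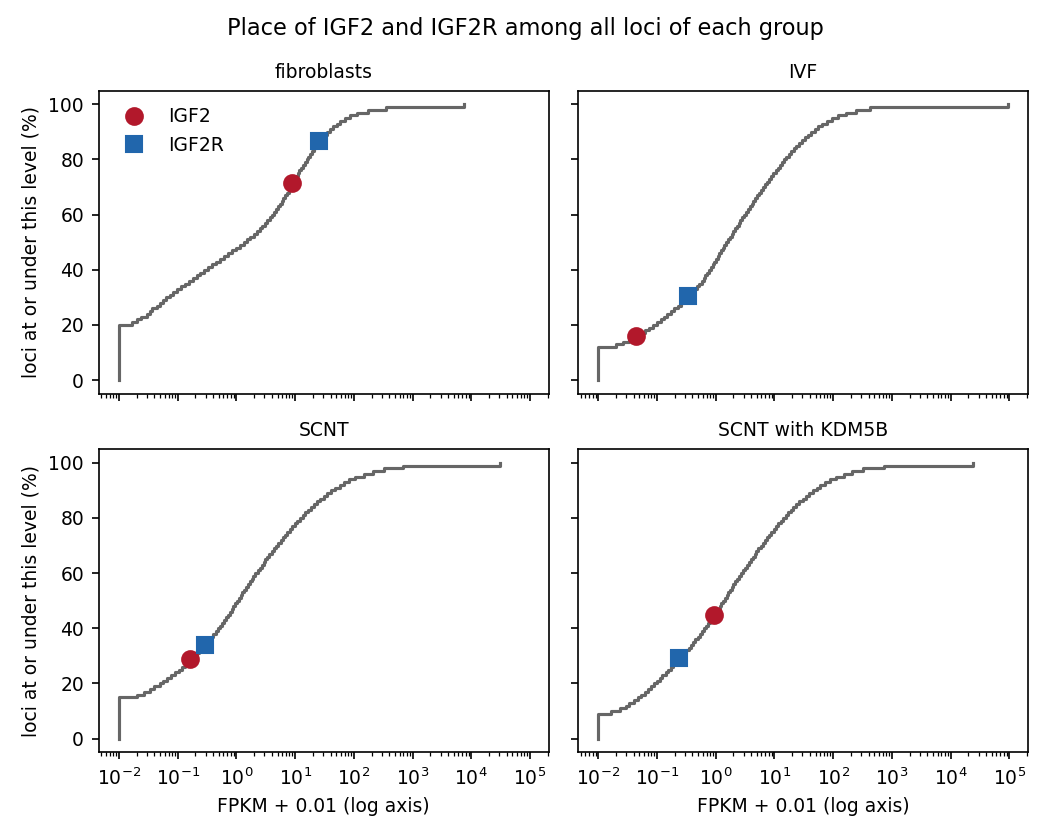
Cumulative share of the 22445 loci (percent, y axis) by level (FPKM + 0.01, log x axis) in each group, with IGF2 (red circles) and IGF2R (blue squares) marked at their percentiles. IGF2 climbs from percentile 16.2 in IVF to 45.0 in SCNT with KDM5B, and IGF2R stays between 29.1 and 34.1 in embryos.

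The receptor exceeded the ligand in fibroblasts, IVF and SCNT, and the ligand exceeded the receptor in SCNT with KDM5B. FPKM is per length, so the genes were set side by side within a column. Amplification of cDNA and fragments of overlapping genes can still affect them unequally, which was not tested. The ratio of IGF2R to IGF2 was 2.87 in fibroblasts, 9.90 in IVF and 1.80 in SCNT. In SCNT with KDM5B IGF2 was 4.12 times IGF2R. There the highest IGF2 library, at 0.92 FPKM or more, was above the 0.67 FPKM that no IGF2R library can exceed. This follows from the ratio of the means. A factor that scales a whole column leaves these ratios as they are. In embryos they rest on levels under 1 FPKM.

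Differences were then taken on the scale of log2(FPKM + 1), where 1 is a 2-fold difference. The added 1 understates differences of low genes, so plain ratios of the means are given too. In fibroblasts against IVF embryos, IGF2 was higher by 3.27 (a ratio of 269) and IGF2R by 4.33 (a ratio of 77.7). The size of the 269 rests on the very low IVF mean of IGF2, 0.0333 FPKM. Both were at least 2-fold higher in fibroblasts, as were 35.6% of the 15634 loci that reached 1 FPKM in fibroblasts or IVF. Both passed that limit through the fibroblast value alone, so the count of 2 supports nothing further. The difference stood at percentile 88.3 among those loci for IGF2 and at 94.4 for IGF2R, places that depend on the same entry by the fibroblast value. Among all loci, with no such filter, it stood at 91.8 and 96.1.

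Cloned embryos were far below fibroblasts for both genes. In SCNT minus fibroblasts the log2 difference was -3.11 for IGF2 and -4.38 for IGF2R, and the fibroblast mean was 58.4 times and 92.7 times the SCNT mean. Both were at least 2-fold lower in SCNT, against 38.6% of 14703 loci. With KDM5B the differences from fibroblasts were -2.37 for IGF2 and -4.45 for IGF2R, or ratios of 9.73 and 115. Both were again at least 2-fold lower, against 34.9% of 15136 loci. In both comparisons the genes reached 1 FPKM through the fibroblast value alone, so these counts support nothing further. These comparisons and the one with IVF share the fibroblast column.

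Both genes were under 1 FPKM in the 3 embryo groups, and 2 such values cannot be 2-fold apart once 1 is added. Between embryo groups the 2-fold limit was therefore read with a pseudocount of 0.1, over all 22445 loci. Between SCNT and IVF neither gene reached it, at 0.93 for IGF2 and -0.19 for IGF2R, while 61.1% of loci did. For IGF2 the added 0.1 is larger than the IVF mean of 0.0333 FPKM, and the plain ratio of the means, 4.60, is past 2-fold. Missing the limit therefore rests on the pseudocount, and it does not show that IGF2 differed less than those loci. With the pseudocount of 1, IGF2 was higher in SCNT by 0.16 on the log2 scale, a ratio of 4.60 between means of 0.153 and 0.0333 FPKM. For IGF2R the log2 difference was -0.06, and the IVF mean was 1.19 times the SCNT mean. That sign turned with the scaling. It was -0.12 with values rescaled to TPM, 0.11 after quantile normalization and 0.14 with columns centred. These settings shifted the median of 17081 loci by -0.13, 0.18 and 0.20. Centring took from each column the median, over these loci, of its departures from each locus's mean across groups. No direction is therefore given for IGF2R between SCNT and IVF.

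With KDM5B overexpression, the IGF2 mean of SCNT embryos was 6 times as high, at 0.92 against 0.153 FPKM, a log2 difference of 0.74. It stood at percentile 90.5 of the differences of all loci, whose median was 0.07. With a pseudocount of 0.1 the difference was 2.01 and past the limit, as were 15.3% of all loci in that direction. A ratio of at least 6 was held by 617 of the 19015 loci above 0 in SCNT, or 3.24%. It was held by 74 of the 1032 such loci (7.17%) that, like IGF2, were at 5 FPKM or more in fibroblasts and under 1 FPKM in the 3 embryo groups. That class was set by the members' own values, and its cap of 1 FPKM limits the ratio. The larger set holds loci of every SCNT level above 0. No share was taken among all loci near the 0.153 FPKM of IGF2, so whether low loci reach such ratios more often was not tested. The 3430 loci at 0 in SCNT have no ratio and are left out. Some rose as well, such as ENSBTAG00000009654.5, at 0.723 FPKM with KDM5B, so both shares can make IGF2 look rarer than it is. IGF2 remained higher with KDM5B under the 3 scalings, at 0.53 to 0.80. These scalings shifted the median of 17081 loci by 0.01 (TPM), -0.13 (quantile) and -0.20 (centred). For IGF2R the log2 difference between the same groups was -0.06, at percentile 25.9, and the SCNT mean was 1.24 times that with KDM5B. It lay between -0.26 and -0.07 under the scalings.

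Against IVF embryos, IGF2 in SCNT with KDM5B was higher by 0.89 on the log2 scale, 0.92 against 0.0333 FPKM and a ratio of 27.6. The 3 IVF libraries sum to only 0.1 FPKM, so the size of this ratio rests on a very low value. For IGF2R the log2 difference was -0.12, and the IVF mean was 1.48 times that with KDM5B. With a pseudocount of 0.1 IGF2 passed the limit at 2.94, as did 25.2% of all loci in that direction, and IGF2R did not, at -0.41. The embryo comparisons share columns pairwise, so they are not independent views of the same gene.

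**Figure D3:**
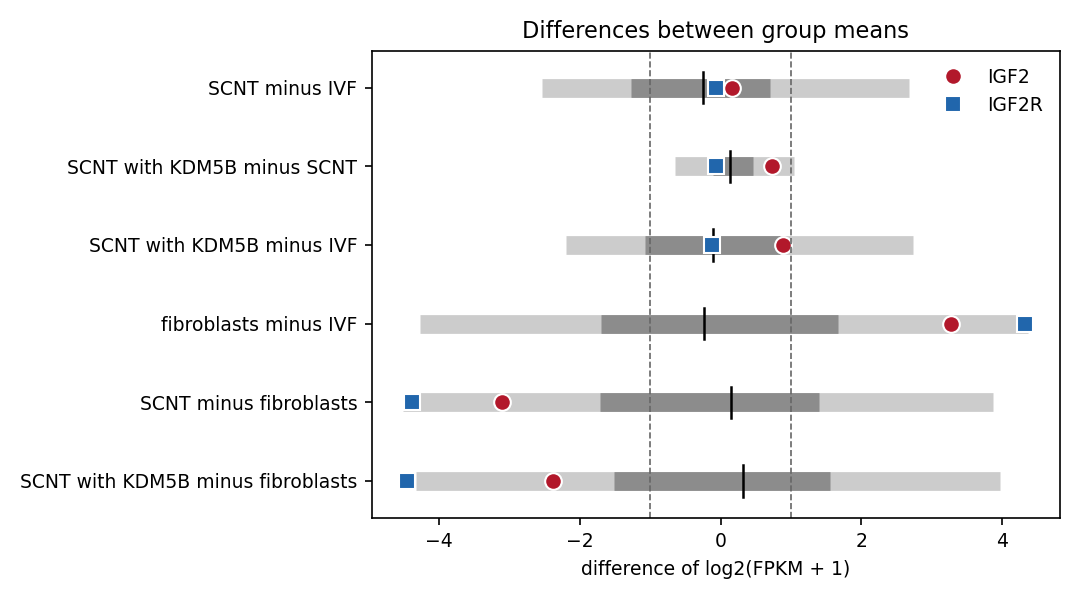
Difference of log2(FPKM + 1) in 6 comparisons for IGF2 (red circles) and IGF2R (blue squares), over the middle 50% (dark) and 90% (light) of the 17081 loci with at least 1 FPKM in any group, with the median as a black line and 2-fold as dashed lines. Both genes lie beyond 2-fold in every comparison with fibroblasts. Between embryo groups their values are all under 1 FPKM, so on this scale they cannot pass 2-fold.

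**Figure D4:**
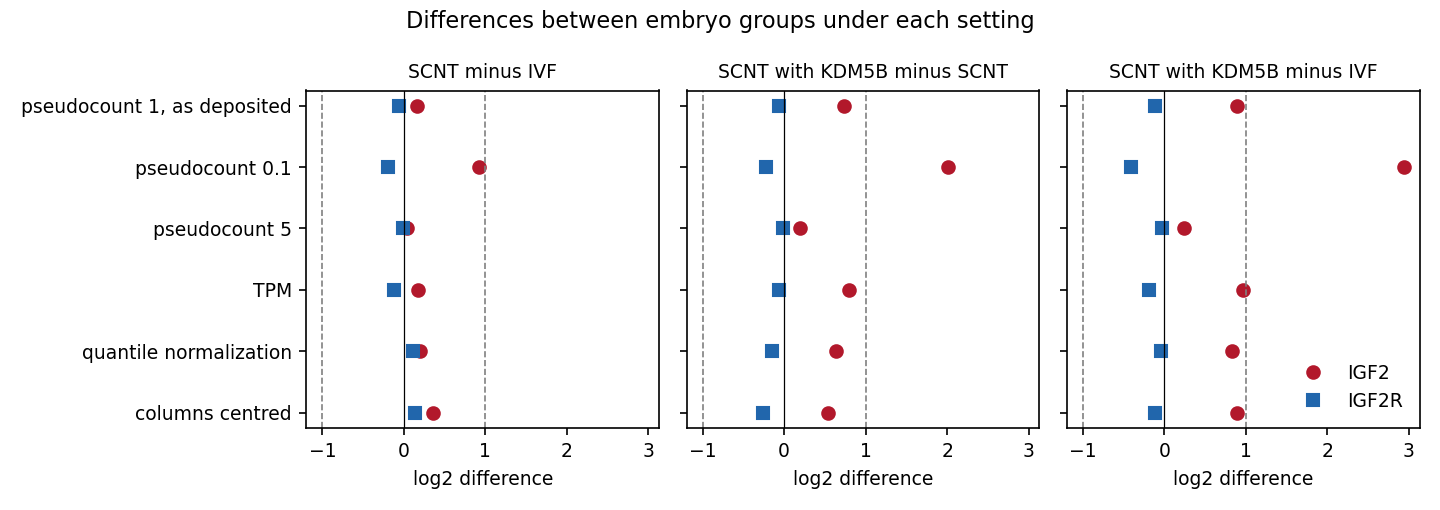
Log2 difference (x axis) between embryo groups for IGF2 (red circles) and IGF2R (blue squares) under 6 settings (y axis); dashed lines mark 2-fold. IGF2 passes 2-fold only at a pseudocount of 0.1 with KDM5B, against SCNT (2.01) and against IVF (2.94), and IGF2R changes sign in SCNT minus IVF.

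Both genes fall in a class of loci that were on in fibroblasts and low in embryos. The class was drawn after their values were seen and is a description. Of 8325 loci at 5 FPKM or more in fibroblasts, 1359 (16.3%) were under 1 FPKM in the 3 embryo groups, and 4420 (53.1%) were at 5 FPKM or more in SCNT. The class medians were 14.9 FPKM in fibroblasts, 0.13 FPKM in IVF, 0.07 FPKM in SCNT and 0.11 FPKM with KDM5B. The order of IGF2, IVF under SCNT under SCNT with KDM5B, was shared by 206 of the 1359 loci (15.2%). The KDM5B mean was above the SCNT mean in 835 (61.4%). IGF2 was among the 20 loci of the class (1.47%) at 0.92 FPKM or more with KDM5B, just inside the limit of 1 FPKM that defines it.

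Loci with the most similar values were found by the distance over the 4 group means on the log2(FPKM + 1) scale, among 13373 other Ensembl IDs with at least 1 FPKM in any group. For IGF2 they were ENSBTAG00000009654.5, at 9.75 FPKM in fibroblasts, 0.08 in IVF, 0 in SCNT and 0.723 with KDM5B, and ENSBTAG00000011538.5, at 7.55, 0, 0.28 and 0.743 FPKM in the same order. Their distances were 0.29 and 0.30. For IGF2R they were ENSBTAG00000004291.5, at 24.7 FPKM in fibroblasts, 0.563 in IVF, 0.193 in SCNT and 0.277 with KDM5B, and ENSBTAG00000011067.5, at 24.5, 0.147, 0.4 and 0.123 FPKM. Their distances were 0.27 and 0.29. Nothing about shared function follows from values of 4 group means.

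The neighbours of both genes bear on what the counted fragments may include. In RefSeq's gene table for assembly ARS-UCD2.0, which is not the build used for these files, IGF2 lies between INS and H19 and overlaps the microRNA gene MIR483. There IGF2R overlaps AIRN, a long RNA known in the mouse as its imprinted antisense partner. Whether fragments were counted by strand is not given in the sources used here. Without strand, fragments from a stretch that overlapping genes share cannot be assigned by strand, and low values such as those of embryos would be the most exposed. The overlaps are of whole gene spans. Whether exons are shared, and whether any such fragments entered these values, was not tested. No coordinates are printed, because the builds differ.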

How the data were processed

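The deposited table holds FPKM, made by the authors, with 1 column per group (4 in all). That a column is the mean of 3 libraries rests on the numbers themselves: multiples of 0.01 divided by 3, to within 0.001 of a step, made up 100% of the fibroblast column and 99.9955% of each embryo column. Per the submitters' processing notes, the build was UMD3.1 and the tools were HISAT 0.1.6, Bowtie2 2.2.5, RSEM 1.2.12, StringTie 1.0.4 and bcl2fastq 2.16, with no step assigned. Per the labels' protocols, embryo cDNA was made straight from lysates and amplified, which can distort low genes. Groups were taken from the sample titles, because the fibroblasts carry another label that calls them SCNT embryos.

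Differences were taken between values of log2(FPKM + 1), and counts at 2-fold were made over all loci or over those that reached 1 FPKM in either group. Reading the 2-fold limit between embryo groups at a pseudocount of 0.1 was decided after seeing that both genes were under 1 FPKM there. No test was possible with 1 value per group. Alternatives were pseudocounts of 0.1 and 5, other filters, quantile normalization, centred columns, columns scaled to sum to 1000000 (TPM) and other sets of loci for percentiles. The named loci were the 2 members and the 2 Ensembl IDs nearest to each. The lists of pathway, imprinted and marker genes could not be used, since 0 of 17643 Ensembl IDs matched a symbol. The members and lists were chosen with earlier results of these data known. The counting code was tested on copies of the IVF column in which some loci at 5 FPKM or more were changed by a set factor. Changes at lower levels, and counts at a pseudocount of 0.1, were not tested in that way. Python 3.11.15, numpy 2.4.6, pandas 2.3.3 and matplotlib 3.10.9 were used.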

Additional observations from a re-analysis of the deposited data

How the results depend on the processing

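No paired analysis was possible because the table lists 1 mean for each group, with no value per replicate, and leaving out each replicate was not run for that reason. A difference was counted as moved where its log2 value changed by over 0.58, which is 1.5-fold, or crossed 2-fold, and a percentile or count where it changed by over 1.5 times. By that rule 38 differences stayed and 22 moved, 16 percentiles stayed and 10 moved, and 34 counts of loci stayed and 8 moved. Small differences can turn sign and still count as stayed, as IGF2R did in SCNT minus IVF after quantile normalization (0.11) and with columns centred (0.14). Both genes stayed beyond 2-fold in each comparison with fibroblasts under the 5 alternatives run. With a pseudocount of 0.1, IGF2 differed by 0.93 in SCNT minus IVF, 2.01 in KDM5B minus SCNT, 2.94 in KDM5B minus IVF, 6.09 in fibroblasts minus IVF, -5.16 in SCNT minus fibroblasts and -3.15 in KDM5B minus fibroblasts. IGF2R differed by 5.90, -6.10 and -6.32 in the last 3. With a pseudocount of 5, which shrinks low values, IGF2 differed by 0.23 in KDM5B minus IVF, and by 1.47, -1.44 and -1.24 in the comparisons with fibroblasts, and IGF2R by 2.52, -2.54 and -2.55. As TPM these were 4.10, -3.93 and -3.14 for IGF2 and 5.12, -5.24 and -5.31 for IGF2R. The fibroblast column had the smallest sum, 528618 FPKM against 774679 to 887410 in embryos, so this rescaling raised it most. It moved the median of 17081 loci by 0.23 in fibroblasts minus IVF, -0.30 in SCNT minus fibroblasts and -0.32 in KDM5B minus fibroblasts.

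Percentiles depend on which loci are ranked. Among loci at 1 FPKM or more in any column, IGF2 stood at percentile 6.67 in IVF, 13.9 in SCNT and 28.0 with KDM5B, and IGF2R at 16.3, 18.5 and 13.0. Among loci above 0 in the column, IGF2 stood at 4.62 in IVF, 15.9 in SCNT and 39.1 with KDM5B. In that set IGF2R stood at 21.1 in IVF, 22.2 in SCNT and 21.6 with KDM5B. The embryo groups thus lay close together for IGF2R, and IVF and KDM5B changed places. Among loci at 1 FPKM or more in fibroblasts, IGF2 stood at 44.7 there; the embryo values of both genes were under that limit and gave none. For IGF2 the embryo groups kept their order in the 3 sets that gave a value for each of them, Ensembl IDs included.

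Counts of loci 2-fold apart, among those at 1 FPKM or more in either group, fell with a pseudocount of 5, from 8902 to 4833 for SCNT against IVF, 1229 to 341 for KDM5B against SCNT, 8473 to 4611 for KDM5B against IVF, 11961 to 7800 for fibroblasts against IVF, 11083 to 7380 for SCNT against fibroblasts and 11278 to 7394 for KDM5B against fibroblasts. Among loci at 1 FPKM or more in either group, KDM5B against SCNT gave 2441 loci when 0.1 was added before the log and 787, among fewer loci, at FPKM of at least 5 in either group.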
